A study of Mus musculus with 6 samples.

Results

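Ano1 (anoctamin 1, also called TMEM16A; ENSMUSG00000031075) was 1 of 31319 genes counted in single-nucleus RNA sequencing of mouse intestinal organoids, and it was chosen for description because its level was higher in organoids grown in senescent conditioned medium. Since that contrast chose the gene, its levels by medium are given without a test. The organoids were grown from jejunal crypts of C57BL/6 mice aged 8 to 12 weeks. They were exposed to medium conditioned by quiescent mouse embryonic fibroblasts (QCM, 3 samples) or by senescent ones (SCM, 3 samples). How senescence was induced in the fibroblasts used for these nuclei was not given in the labels, and fibroblast medium carries whatever the fibroblasts secrete, so the contrast is between 2 mixtures rather than between single factors. The labels do not say whether replicates came from separate mice or cultures. The methods give individual values in general as single mice unless otherwise stated, without naming these samples, so p-values measure the spread between these samples, whatever its source. The deposited nuclei number 38154 in 15 clusters.

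Ano1 is a chloride channel of the plasma membrane that opens when calcium rises inside the cell. In secretory epithelia it works beside Cftr, the cAMP-gated chloride channel, and chloride leaving the cell draws sodium and water into the lumen. Ano1 is best known in the gut wall as the marker of interstitial cells of Cajal, the pacemaker cells of gut muscle, and it is often raised in injured and malignant epithelium, where it is linked to Egfr and calcium-calmodulin signalling.

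Ano1 lies on the minus strand of mouse chromosome 7, at 144588549 to 144751974 in GENCODE M21 (GRCm38), and the antisense gene Gm44930 lies inside it on the other strand. The RefSeq start of Ano1 lies downstream of that 5′ end, at 144738573. The 250 bases upstream of the RefSeq start (GRCm38.p6, chr7:144738574-144738823, minus strand, printed 5′ to 3′) are shown because YAP target genes are described below with Ano1. Capitals mark the GC box letters GGGCGG.

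Ano1 promoter: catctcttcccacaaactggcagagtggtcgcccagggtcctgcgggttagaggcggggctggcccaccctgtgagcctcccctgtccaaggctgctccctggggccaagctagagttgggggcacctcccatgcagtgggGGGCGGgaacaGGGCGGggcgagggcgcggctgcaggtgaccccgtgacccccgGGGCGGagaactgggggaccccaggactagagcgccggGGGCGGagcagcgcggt

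Searched on both strands, these bases held 4 GC boxes, and 32.7% of the 32851 RefSeq promoter windows of the same length held at least 1. The core of the binding motif of TEAD factors, the DNA-binding partners of YAP (GGAATG), and the AP-1 site (TGANTCA) had no match there, against 12.6% and 6.75% of all windows with a match. The window was 72% G and C, against a median of 52.4% over all windows.

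In 3 respects the libraries differed before any result was read. Nuclei per sample ranged from 430 (SCM replicate 1) to 10833, and summed unique molecular identifiers (UMIs) from 4071926 to 41035733. The median UMI count per nucleus was 8260 in QCM replicate 1 and between 1578 and 3156.5 in the other samples. The libraries of QCM replicate 1 and SCM replicate 1 shared 175 cell barcodes, 40.7% of those of SCM replicate 1, whereas no other of the 15 pairs of libraries shared more than 36. Of the shared barcodes 22.9% carried the same cluster in both libraries, against 14.2% of all pairs of nuclei from the 2 libraries, and both libraries used only 48 different barcode starts where the others used 959 or 960. With those starts and 192 barcode ends there are 9216 combinations, of which QCM replicate 1 filled 41.1%, which is the share of its barcodes that SCM replicate 1 would have in common with it under independent draws.

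In all, 6986 Ano1 UMIs were counted, and 2391 nuclei (6.27%) held at least 1. Levels below are CPM, the UMIs of a gene over the summed nuclei scaled to a total of 1000000 UMIs. The level was 8.97, 21.9 and 24.5 CPM in QCM replicates 1, 2 and 3. It was 63.9, 178 and 61.3 CPM in SCM replicates 1, 2 and 3. Every SCM sample lay above every QCM sample, with means of 101 ± 66.5 against 18.5 ± 8.34 CPM (SD, n = 3 each), a ratio of 5.46 or 2.45 on the log2 scale. With the 9 clusters that every sample filled weighted equally, the level was 14.9, 48.1 and 35.1 CPM in QCM and 52.1, 149 and 70.0 CPM in SCM, and the log2 ratio was 1.47. Of the 19046 genes that passed the filter on low counts, 4.99% showed the same full separation. SCM replicate 2 stood far above the other SCM samples, and without it the log2 ratio of the means fell from 2.45 to 1.76. Without the nuclei of shared barcodes the level was 9.24 CPM in QCM replicate 1 and 76.0 CPM in SCM replicate 1. In a bulk sum of nuclei a larger number of Ano1-expressing nuclei and more Ano1 RNA per nucleus cannot be told apart. Shares of nuclei are given next, but they do not fully separate the 2, since detection at low counts also rises with RNA per nucleus.

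The share of nuclei with an Ano1 UMI was 5.09%, 3.42% and 3.34% in the QCM samples and 10.0%, 13.9% and 7.79% in the SCM samples. Counting intervals (95%, Wilson) ran from 3.01% to 5.84% over the QCM samples and from 7.30% to 14.9% over the SCM samples. The ratio of the mean shares was 2.68. Positive nuclei were deeper than negative ones in every sample, from 2229 against 1563 median UMIs in QCM replicate 3 to 16998 against 2203 in SCM replicate 1. With each nucleus thinned to 1000 UMIs, and shallower nuclei left out (up to 1876 in a sample), the shares were 0.580%, 1.37% and 1.64% in QCM and 3.09%, 5.61% and 3.72% in SCM. The media remained apart after thinning, with a ratio of mean shares of 3.45.

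**Figure D1:**
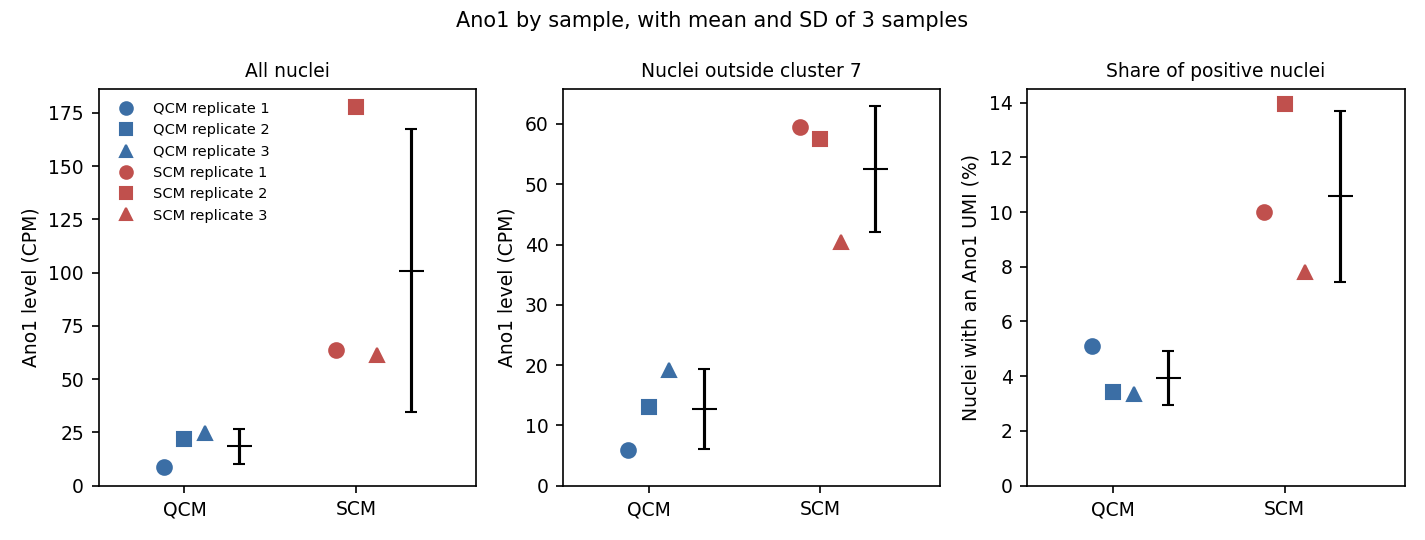
Ano1 level in CPM over all nuclei (left) and outside cluster 7 (middle), and the share of nuclei with an Ano1 UMI in percent (right), for each of the 6 samples; the black bars are the mean and SD of 3 samples per medium. All 3 SCM samples lie above all 3 QCM samples in each panel, and SCM replicate 2, at 178 CPM, stands apart in the left panel but not in the middle one (57.5 CPM).

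Most positive nuclei held few Ano1 UMIs, and a small number held many. Of the positive nuclei 74.3% held 1 UMI, and the highest count in a nucleus was 213. The 104 nuclei with at least 10 Ano1 UMIs held 51.7% of all Ano1 UMIs, and 88 of them belonged to cluster 7. This share rested on SCM replicate 2 and was 29.6% without that library. Per sample it was 36.7%, 33.6% and 13.3% in QCM and 63.1%, 71.3% and 26.3% in SCM, under 50% in 4 of 6 samples. Such nuclei numbered 4, 7 and 2 in the QCM samples and 4, 67 and 20 in the SCM samples. As a share of nuclei they averaged 0.0712% in QCM and 0.816% in SCM.

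Cluster 7 was the cluster with the most Ano1. It held 3.78% of the nuclei and 55.1% of the Ano1 UMIs, or 35.0% of the UMIs without SCM replicate 2, and its share ranged from 10.4% to 72.9% over the samples. It met the rule for a fetal-like name, with 7 of the 11 fetal markers at least 2-fold above the other clusters: Clu, a secreted chaperone that marks regenerating crypts, the calcium-binding annexins Anxa1, Anxa3 and Anxa10, the surface proteins Ly6a and Msln, and the interleukin-1 receptor antagonist Il1rn. None of these was among its 10 leading genes, which included Syt16, Cdh13, Col4a1, Col4a2, Fn1 and Samd5.

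Ano1 in cluster 7 was 94.3, 323 and 159 CPM in the QCM samples. It was 176, 792 and 303 CPM in the SCM samples. In 6 of 6 samples this was the highest level of any cluster with at least 10 nuclei, between 2.96 and 24.7 times the level outside the cluster. The media overlapped in this cluster, since SCM replicates 1 and 3 lay below QCM replicate 2. The share of positive cluster 7 nuclei did not overlap, at 7.59%, 14.4% and 7.14% in QCM and 29.4%, 50.5% and 23.7% in SCM. With nuclei thinned to 1000 UMIs the shares were 2.76%, 7.35% and 3.79% in QCM and 7.14%, 27.0% and 12.0% in SCM, and SCM replicate 1, with 14 nuclei left, then lay below QCM replicate 2. Cluster 7 itself made up 2.72% to 3.82% of nuclei in QCM and 3.95% to 4.84% in SCM.

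Within cluster 7 the nuclei with at least 10 Ano1 UMIs held 48.1% to 92.7% of the Ano1 UMIs of each sample. A cut on raw counts picks deep nuclei for any gene, so the depth of these nuclei is no separate result. In SCM replicate 2, 58 of its 204 nuclei held at least 10 Ano1 UMIs and 92.7% of the cluster's Ano1 in that sample. Those 58 nuclei had a median of 37009.5 UMIs, against 4912 over all cluster 7 nuclei of the sample. Their Ano1 level was 973 CPM, against 792 CPM over all cluster 7 nuclei of SCM replicate 2. The corresponding nuclei of the other samples, picked by the same cut, were at 371 to 1353 CPM. In QCM replicates 1, 2 and 3 there were 3, 6 and 2 nuclei with at least 10 Ano1 UMIs, and in SCM replicates 1 and 3 there were 1 and 18.

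**Figure D2:**
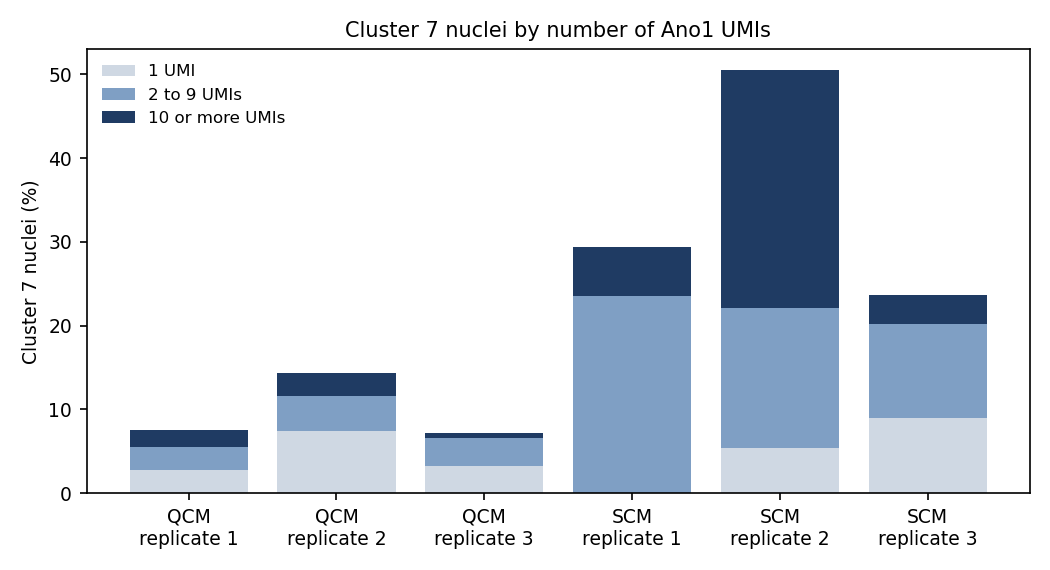
Share of cluster 7 nuclei in percent with 1, 2 to 9 and 10 or more Ano1 UMIs in each of the 6 samples (145, 216 and 336 nuclei in QCM, 17, 204 and 524 in SCM). The total height is the share of positive nuclei, and the darkest band is widest in SCM replicate 2, where it holds 58 nuclei.

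Outside cluster 7 Ano1 was 5.86, 13.1 and 19.2 CPM in QCM and 59.5, 57.5 and 40.4 CPM in SCM. These levels did not overlap, and the ratio of the means was 4.13. In SCM replicate 1 the 7 nuclei of cluster 14, a cluster of very deep nuclei, held 158 of the 260 Ano1 UMIs, and without cluster 14 the level of that whole sample was 36.9 CPM. In all 15 clusters the mean SCM level was above the mean QCM level, over samples with at least 10 nuclei in the cluster. In clusters 13 and 14 the SCM level was that of 1 sample. In cluster 14 SCM replicate 3, left out with 7 nuclei, was at 17.2 CPM, below QCM replicate 2 at 20.7 CPM. Of the 13 clusters with at least 2 samples per medium the levels did not overlap in 7. These were clusters 3, 4 and 5, with 6 samples, and clusters 9, 10, 11 and 12, which SCM replicate 1 did not enter. Of all gene and cluster pairs tested 7.54% showed such separation with SCM higher.

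The ratio of mean levels ranged from 2.06 in cluster 4 to 12.0 in cluster 10. The latter is an enteroendocrine-like cluster (Chga, Tph1, Tac1), and its levels rested on few counts: 1, 1 and 7 Ano1 UMIs in QCM, and 14 and 41 UMIs in SCM replicates 2 and 3, of which 32 came from 1 nucleus. In cluster 5, an unnamed cluster, levels were 3.95, 11.1 and 26.4 CPM in QCM and 87.8, 67.4 and 52.1 CPM in SCM. In the enterocyte-like cluster 8 they were 4.03, 7.05 and 18.5 CPM in QCM and 8.28, 164 and 42.5 CPM in SCM, which overlapped. In the goblet and Paneth-like cluster 6 they were 4.58, 14.5 and 20.1 CPM in QCM and 16.7, 61.4 and 39.6 CPM in SCM, which also overlapped. In the tuft-like cluster 11 they were 2.39, 6.72 and 13.9 CPM in QCM and 41.6 and 35.8 CPM in SCM replicates 2 and 3. Averaged over all entered samples, cluster 7 (308 ± 253 CPM, SD, n = 6) stood first, and the next clusters, 10 (45.0 ± 58.8, n = 5), 5 (41.5 ± 33.1, n = 6), 8 (40.7 ± 61.9, n = 6) and 3 (39.5 ± 42.5, n = 6), did not differ beyond their spread.

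**Figure D3:**
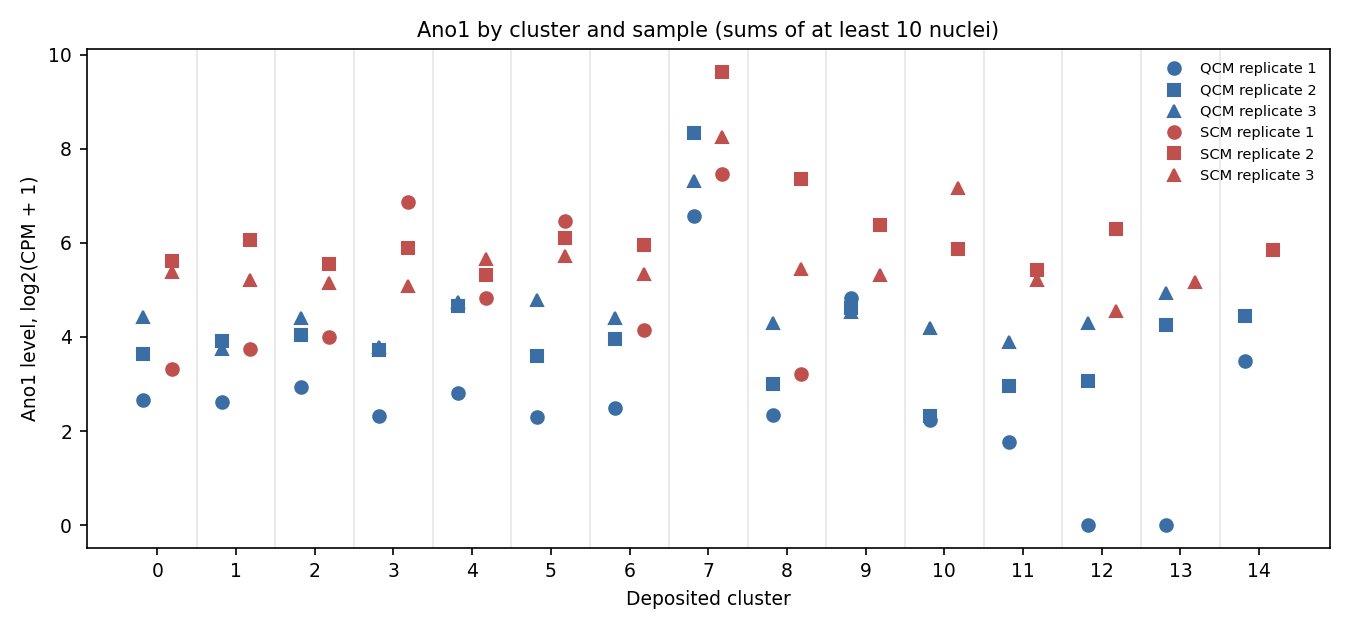
Ano1 level as log2(CPM + 1) in each deposited cluster and sample with at least 10 nuclei (blue QCM, red SCM; circle, square and triangle for replicates 1, 2 and 3). Cluster 7 holds the highest point of every sample, QCM replicate 1 is the lowest QCM sample in every cluster but 9, and its clusters 12 and 13 are at 0 counts.

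Low counts outside cluster 7 can come from free RNA as well as from expression, which no file separates. In QCM thinned shares were 0% to 1.11% of nuclei in the enterocyte-like cluster 8, 0% to 0.962% in the tuft-like cluster 11 and 0% to 1.88% in the enteroendocrine-like cluster 10. In SCM they were 0%, 7.79% and 3.31% in cluster 8 (replicates 1, 2 and 3). In SCM replicates 2 and 3 they were 3.57% and 2.35% in cluster 11, and 9.33% and 2.17% in cluster 10. Cluster 7 had 2.76% to 7.35% in QCM and 7.14% to 27.0% in SCM. The number of Ano1 UMIs per 100 UMIs of another cluster 7 gene was therefore compared inside and outside the cluster. Per 100 Clu UMIs there were 51.2 Ano1 UMIs inside and 44.2 outside cluster 7 in SCM replicate 2, but 39.5 and 15.6 in QCM replicate 1. Per 100 Msln UMIs there were 187 inside and 353 outside in SCM replicate 3, and 52.6 and 206 in QCM replicate 3. Ano1 was more frequent relative to Msln outside than inside in 4 of 6 samples, relative to Myof in 3 of 6, and relative to Clu, Anxa1 and Anxa3 in 1 of 6 each.

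Interstitial cells of Cajal were looked for by their markers, since they are the best-known source of Ano1 in the gut. Of the 5 markers counted, 4 or 5 had UMIs in each sample, and their sum was 18.2 to 31.4 CPM in QCM and 21.2 to 27.7 CPM in SCM. In Ano1-positive nuclei of cluster 7 the sum was 15.1 CPM, below every whole sample. The markers Kit and Etv1 were at least 2-fold higher in the enteroendocrine-like cluster 9. Fibroblast markers summed to 1.28 to 5.72 CPM over the samples and 1.13 CPM in positive cluster 7 nuclei, where 5 of 7 were at 0, and smooth muscle markers to 3.06 to 8.35 CPM and 2.26 CPM. Immune markers summed to 9.05 CPM in positive cluster 7 nuclei against 0 to 3.26 CPM over the samples, with Csf1r at least 2-fold above its level in the other clusters. In the comparison of positive with matched nuclei described below Csf1r had a log2 fold change of 1.41 ± 0.46 (adjusted p = 0.0793). The part of immune cells in the Ano1 levels was not tested.

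The genes whose level followed that of Ano1 most closely over the 81 sample and cluster sums of at least 10 nuclei were Mboat1 (Pearson r = 0.83), Pgap1 (0.82), Sorbs2 (0.81), Epha4 (0.80) and Fmnl2 (0.78), out of 12692 genes with at least 500 UMIs. Mboat1 encodes a lysophospholipid acyltransferase, Pgap1 an enzyme that trims lipid anchors of surface proteins, Sorbs2 an adhesion adaptor, Epha4 an ephrin receptor and Fmnl2 an actin-nucleating formin. With each cluster centred on its own mean, Wwc1, which encodes the Hippo pathway scaffold KIBRA, stood first (0.84), followed by Mboat1, Pgap1, Palld (palladin, an actin-binding protein) and Fmnl2 at 0.80 to 0.81. These points share libraries, clusters and depths, so the correlations are descriptions.

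To ask which genes accompanied Ano1 within a sample, Ano1-positive nuclei were compared with Ano1-negative nuclei of the same sample and cluster nearest in UMI count, in 6 of 6 samples. The 2382 positive nuclei entered were set against 3940 matched ones, and counts were summed per sample and tested with edgeR and the sample as a block. Ano1 itself was left out. Of 15540 genes tested, 776 (4.99%) were higher and 248 (1.6%) lower in positive nuclei at an adjusted p under 0.05. Over all clusters the matching left its widest depth gaps in SCM replicate 1 (medians of 12219.5 against 9640 UMIs) and SCM replicate 2 (4005 against 3113). In cluster 7 positive nuclei were deeper in every sample that could be matched there without a limit on depth, with medians of 18194 against 9809, 4979 against 3004 and 5431 against 3005.5 UMIs in the QCM samples, and of 19212 against 2207 and 4406.5 against 2131 UMIs in SCM replicates 2 and 3. The sets were balanced in the share of cluster 7 nuclei, but not in the UMIs that these nuclei brought. Cluster 7 therefore weighed more in the positive than in the matched sums. Without the depth limit, a gene high in cluster 7 can be called higher with no difference inside that cluster. With matched nuclei held within 1.25-fold of the depth of their partner (2190 pairs), 66 genes (0.47% of 14046 tested) were higher and 16 (0.114%) lower, 75 of these 82 also called, in the same direction, without that limit. Values under that limit are given below as depth-limited. The limit also left out cluster 7 nuclei, whose share of positive nuclei fell in every sample. It fell from 13.9% to 3.57% in SCM replicate 1, from 14.4% to 3.36% in SCM replicate 2 and from 14.7% to 11.3% in SCM replicate 3. Depth-limited values over all clusters thus differ from the others in depth and in cluster 7 content at once, and the 2 were not separated. The number of calls depended on single libraries: without SCM replicate 2 there were 547 calls and without SCM replicate 3 there were 564, against 1024 with all.

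Of the 11 fetal genes listed, 7 passed the filter on low counts, and all 7 were called higher, with a median log2 fold change of 2.18 against -0.02 over all genes. The same list had named cluster 7, which weighed more in the positive sums, so these calls do not show a difference inside a cluster. Depth-limited, 3 of 7 were called, with a median of 0.57. Msln, mesothelin, was at 45.5, 153 and 152 CPM in positive nuclei of the QCM samples and at 9.17, 6.26 and 14.9 CPM in their matched nuclei. In the SCM samples it was at 40.5, 184 and 81.8 CPM against 4.41, 28.4 and 15.8 CPM. Positive nuclei were higher in 6 of 6 samples, by a log2 fold change of 2.86 ± 0.15 (SE; adjusted p = 1.56e-10), and by 0.64 ± 0.15 depth-limited (adjusted p = 0.0125), where they were higher in 4 of 6.

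Anxa3 was at 49.9, 80.6 and 67.1 CPM in positive and 14.6, 20.7 and 24.1 CPM in matched nuclei of the QCM samples. In the SCM samples it was at 60.0, 206 and 119.9 CPM against 16.5, 36.3 and 29.5 CPM. The difference was 2.02 ± 0.11 on the log2 scale (adjusted p = 1.86e-10), and 0.95 ± 0.12 depth-limited (adjusted p = 7.63e-09). Clu rose by 2.24 ± 0.14 (adjusted p = 6.44e-10), and by 0.44 ± 0.10 depth-limited (adjusted p = 0.00504). It reached 753 CPM in positive nuclei of SCM replicate 2, against 104 CPM in matched ones, and lay between 68.6 and 138 CPM in positive nuclei of the other samples. Anxa1 rose by 2.18 ± 0.18, but depth-limited its estimate of 0.57 ± 0.15 was not called (adjusted p = 0.0539).

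Of the listed YAP target genes 18 passed the filter and 11 were called higher in positive nuclei, none lower, with a median of 1.07. Depth-limited, 3 of 13 were called and the median was 0.09. Without SCM replicate 2 the number called fell to 5. Myof, which encodes the membrane repair protein myoferlin, was at 40.1, 69.1 and 48.0 CPM in positive nuclei of the QCM samples and at 5.45, 8.77 and 10.8 CPM in matched ones. In SCM it was at 39.0, 280.2 and 107 CPM against 12.1, 32.2 and 20.4 CPM. It had the smallest p of all genes, with a log2 fold change of 2.69 ± 0.13 (adjusted p = 2.50e-11), and of 1.04 ± 0.14 depth-limited (adjusted p = 5.46e-08). Ptpn14, a phosphatase that restrains YAP, rose by 2.38 ± 0.22 (1.38 ± 0.28 depth-limited), and F3, tissue factor, by 2.24 ± 0.15 (0.72 ± 0.16 depth-limited), and both were called in each fit.

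**Figure D4:**
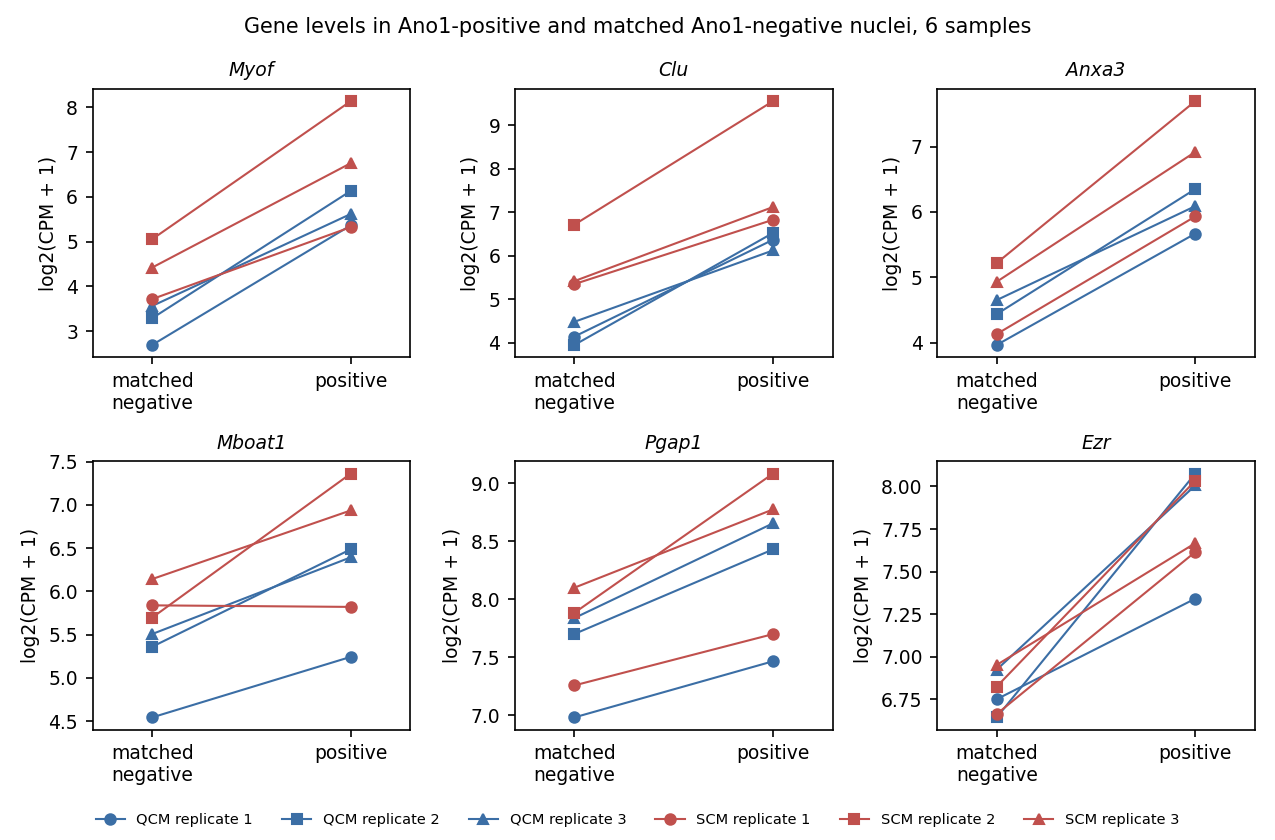
Levels as log2(CPM + 1) of 6 genes in Ano1-positive nuclei and in matched Ano1-negative nuclei of the same sample and cluster, 1 line per sample (blue QCM, red SCM). The lines rise from matched to positive in 6 of 6 samples for each gene except Mboat1, which is level in SCM replicate 1 (55.5 against 56.2 CPM).

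Of 6 listed genes whose products are linked to the Ano1 protein 5 passed the filter, and all 5 were called higher, with a median log2 fold change of 0.53. Depth-limited, 1 of 4 was called, and outside cluster 7 none of 4. That gene was Ezr, which encodes ezrin, a linker of membrane proteins to actin that binds Ano1. It was at 161, 269 and 256 CPM in positive and 107, 98.9 and 120.4 CPM in matched nuclei of the QCM samples, and at 195, 261 and 202 CPM against 100.3, 112 and 123 CPM in the SCM samples. The difference of 0.98 ± 0.09 (adjusted p = 1.50e-07) was 0.26 ± 0.07 depth-limited (adjusted p = 0.0242). Msn, moesin, rose by 2.81 ± 0.41, the PDZ scaffold gene Slc9a3r1 by 0.53 ± 0.13, the growth factor receptor Egfr by 0.40 ± 0.08 and the cortactin gene Cttn, a neighbour of Ano1 on chromosome 7, by 0.34 ± 0.08. Depth-limited, the estimates of Slc9a3r1 (0.03), Egfr (0.09) and Cttn (0.10) were not called, and Msn did not pass the filter.

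Genes of chloride secretion and of calcium signalling showed no common direction. Of 10 genes that drive secretion from the basolateral side none was called, the chloride loader Slc12a2 differing by -0.05 ± 0.05 (adjusted p = 0.736). Cftr differed by -0.11 ± 0.05 (adjusted p = 0.278). The apical list held Cftr, other channel and exchanger genes and the Clca genes, and 8 of its genes were tested. Of these 1 was higher, the goblet cell protein gene Clca1 (2.43 ± 0.48). A further 3 were lower, Clca4b (-0.37 ± 0.07), Clca3a1 (-0.33 ± 0.09) and Clca3b (-0.24 ± 0.06). Over whole samples Clca1 was at 8.56 CPM in SCM replicate 2 and at 0.49 to 1.15 CPM in the others, so its call rested largely on that library. No channel or exchanger gene outside the Clca family was called. Clca genes are near copies of each other, so reads may have been split between them. Depth-limited, none of 6 was called. Among 5 sodium transporters Slc9a2 was higher (0.40 ± 0.09) and the glucose cotransporter gene Slc5a1 lower (-0.29 ± 0.06), and of 3 aquaporins none was called. Depth-limited, neither Slc9a2 (0.16, adjusted p = 0.844) nor Slc5a1 (-0.16, adjusted p = 0.348) was called.

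Of 18 genes of calcium release and entry the receptor gene Itpr3 was higher (0.33 ± 0.07) and the phospholipase gene Plcb1 lower (-0.36 ± 0.10). Depth-limited, Plcb1 alone was called (-0.44 ± 0.09, adjusted p = 0.00315). Of 8 genes of G protein-coupled receptors and of the alpha subunits Gnaq and Gna11, most of them linked to calcium release, the muscarinic receptor gene Chrm3 was lower (-0.26 ± 0.07), and of 13 calcium-calmodulin effectors none was called. Depth-limited, Chrm3 had an estimate of -0.06 and Itpr3 of 0.07, neither called.

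Of 7 other anoctamin genes tested, Ano3 was called. It was at 14.3, 6.33 and 12.2 CPM in positive and 1.98, 4.38 and 5.72 CPM in matched nuclei of the QCM samples, and at 6.00, 50.2 and 26.6 CPM against 3.31, 6.49 and 6.15 CPM in the SCM samples. It was higher in 6 of 6 samples, by 2.21 ± 0.22 (adjusted p = 6.88e-07), and by 1.05 ± 0.28 depth-limited (adjusted p = 0.0468). The other 6 members tested, among them Ano6, a phospholipid scramblase, and Ano9 and Ano10, had estimates from -0.39 to 0.25, the smallest adjusted p being 0.162. Over whole samples Ano3 was at 3.44, 1.81 and 6.07 CPM in QCM and 3.93, 20.9 and 7.28 CPM in SCM, which overlapped.

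Markers of other epithelial types moved in both directions. Of 10 enteroendocrine genes 4 were lower: the hormone genes Cck (-0.75 ± 0.10) and Gcg (-1.12 ± 0.18), the granin gene Chgb (-0.70 ± 0.09) and Neurod1. Cck and Chgb were lower in 6 of 6 samples and Gcg in 5 of 6. Depth-limited, none of the 10 was called. Of 8 stem cell genes Olfm4 (-0.77 ± 0.14), Smoc2 (-0.30 ± 0.06) and Rgmb (-0.32 ± 0.09) were lower, and depth-limited Olfm4 (-0.45 ± 0.11) and Smoc2 (-0.20 ± 0.05) were lower. Of 8 enterocyte and 4 tuft genes none was called, of 6 Paneth genes Itln1 was lower (-0.24 ± 0.07), of 7 goblet genes Clca1 and Zg16 (1.15 ± 0.33) were higher, and of 3 markers of interstitial cells of Cajal Etv1 was lower (-1.28 ± 0.26). As given above, Clca1 was low in every sample but SCM replicate 2. Depth-limited, Zg16 was called (0.96 ± 0.24, adjusted p = 0.0301), Itln1 (-0.17), Rgmb (-0.13) and Etv1 (-0.89) were not, and Clca1 did not pass the filter. Smooth muscle and fibroblast markers did not pass the filter, and of the immune and the neural list the 1 gene tested in each was not called.

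The other genes with the smallest p were Syt16, a synaptotagmin family gene (3.31 ± 0.19), and the basement membrane collagen gene Col4a2 (3.98 ± 0.24) among those that rose, and the small nuclear RNA gene Rn7sk (-0.53 ± 0.08) and the nuclear receptor gene Esrrg (-0.50 ± 0.08) among those that fell. Depth-limited, Syt16 (1.34), Col4a2 (1.81) and Rn7sk (-0.65) were called and Esrrg (-0.18) was not. Of 10 genes tested within 500 kb of Ano1, 5 were called without the depth limit, where 4.99% of all genes were called higher and 1.6% lower. With the limit, where 0.47% of all genes were called higher, the antisense Gm44930 alone was called. The antisense Gm44930 (3.23 ± 0.36, adjusted p = 2.17e-06), Cttn, the cyclin gene Ccnd1 (0.78 ± 0.14), LTO1 (0.51 ± 0.12) and Fgf15 (3.04 ± 0.60) were called higher. Depth-limited, Gm44930 was called (2.49 ± 0.51, adjusted p = 0.00164), Ccnd1 (0.10, adjusted p = 0.926), LTO1 (0.34, adjusted p = 0.473) and Cttn (0.10, adjusted p = 0.890) were not, and Fgf15 did not pass the filter. The other 5, Shank2 (-0.21), Gm14372 (-0.30), Tpcn2 (-0.04), Ppfia1 (0.01) and Fadd (0.16), were not called in either fit. Gm44930 overlaps Ano1 on the opposite strand. How strand was used in counting was not given in the sources used here, and whether the 2 genes shared reads was not checked.

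The 7 genes most like Ano1 over the sums were all called higher in this comparison. Pgap1 was at 176, 344 and 402 CPM in positive and 125, 207 and 228 CPM in matched nuclei of the QCM samples. In the SCM samples it was at 207, 542 and 437 CPM against 152, 235 and 274 CPM, again higher in 6 of 6. Pgap1 rose by 0.76 ± 0.08 and Mboat1 by 1.01 ± 0.13, and, in the same order, depth-limited by 0.47 ± 0.05 (adjusted p = 6.42e-10) and 0.70 ± 0.09 (adjusted p = 1.43e-08). Epha4 rose by 1.17 ± 0.10, Fmnl2 by 0.82 ± 0.08, Sorbs2 by 0.68 ± 0.08, Wwc1 by 0.58 ± 0.06 and Palld by 0.49 ± 0.09. All 7 were called depth-limited as well. They had been picked from sums that hold the same nuclei, so their number is no separate evidence.

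**Figure D5:**
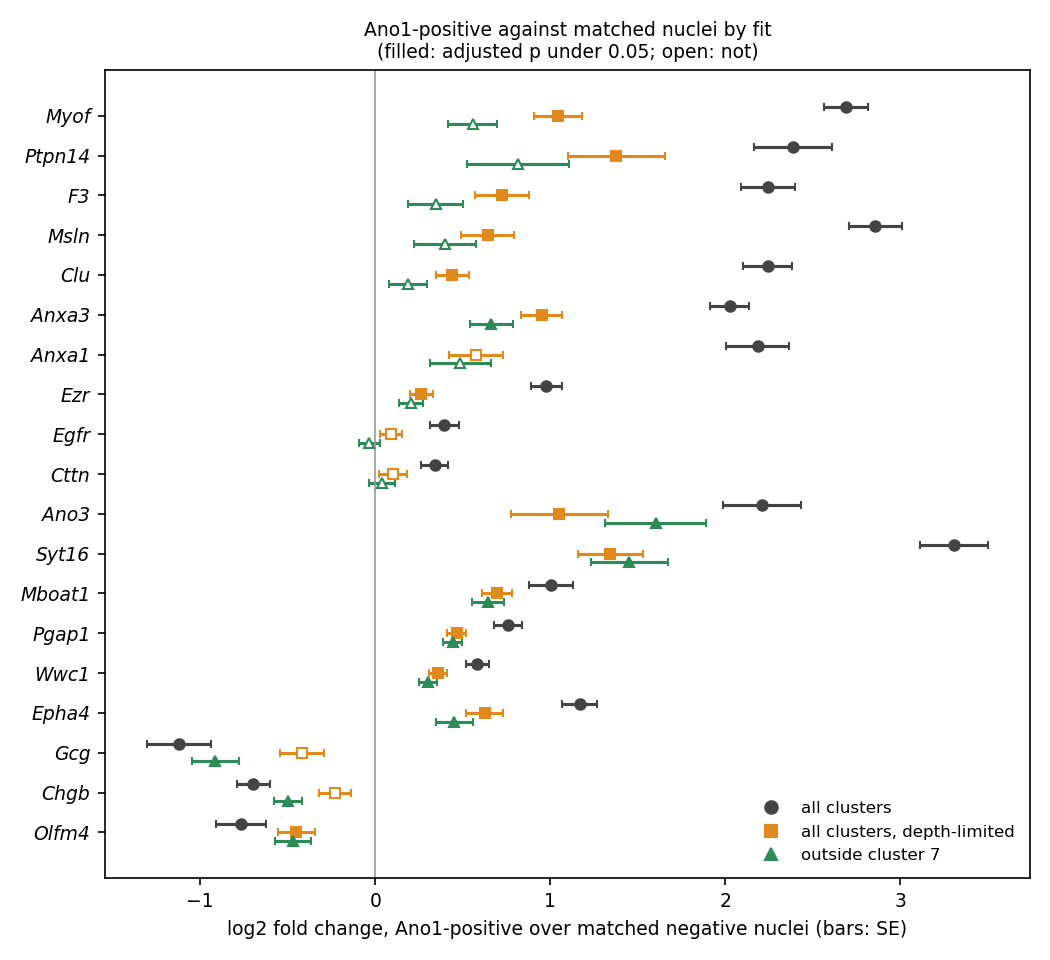
Log2 fold change of 19 genes in Ano1-positive over matched nuclei with its SE, in all clusters (grey), in all clusters with depth within 1.25-fold (orange) and outside cluster 7 (green); filled symbols have an adjusted p under 0.05. The fetal and YAP target genes shift towards 0 from grey to green (Myof 2.69, 1.04 and 0.56), while Mboat1 (1.01, 0.70 and 0.65) and Pgap1 (0.76, 0.47 and 0.44) stay called in each.

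Outside cluster 7, 2086 positive nuclei were compared with 3498 matched ones, and the depth medians differed by less than in the full set (3418.5 against 3419 UMIs in SCM replicate 2). Of 14885 genes 28 (0.188%) were higher and 11 (0.0739%) lower. The fetal gene Anxa3 was called (0.66 ± 0.12, adjusted p = 0.00349), 1 of 7, while of 12 YAP targets none was, Myof having an estimate of 0.56 ± 0.14 (adjusted p = 0.0795). Pgap1 had the smallest p. It was at 134, 286 and 317 CPM in positive and 125, 202 and 223 CPM in matched nuclei of the QCM samples, and at 213, 343 and 379 CPM against 151, 234 and 261 CPM in the SCM samples. Its difference was 0.44 ± 0.05 (adjusted p = 7.92e-06), in 6 of 6 samples.

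The other genes that rose with the smallest p outside cluster 7 were Mboat1 (0.65 ± 0.09), the autophagy gene Atg9b (0.77 ± 0.11), Syt16 (1.45 ± 0.22) and the talin gene Tln2 (0.40 ± 0.06). Those that fell were Gcg (-0.91 ± 0.14), Chgb (-0.50 ± 0.08), Cck (-0.55 ± 0.10), Etv1 (-1.10 ± 0.23) and Olfm4 (-0.47 ± 0.10). Ano3 (1.60 ± 0.29), Wwc1 (0.30 ± 0.05), Palld (0.29 ± 0.06), Epha4 (0.45 ± 0.10), Col4a2 (1.80 ± 0.40), Cdh13 (0.78 ± 0.17), Ahnak (0.60 ± 0.11) and Gm44930 (2.42 ± 0.45) were also called higher. So 5 of the 7 genes most like Ano1 were called there, Sorbs2 (0.23 ± 0.06, adjusted p = 0.0624) and Fmnl2 not. Without SCM replicate 2 there were 14 calls, without SCM replicate 3 there were 13, and without QCM replicate 1 there were 83, against 39.

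Within cluster 7, depth-limited matching left 153 pairs of nuclei in 4 samples (25, 19, 20 and 89 pairs in QCM replicates 2 and 3 and SCM replicates 2 and 3), and 20 of the 101 positive nuclei that could be entered from SCM replicate 2 found a partner. Of 3489 genes 26 (0.745%) were higher and 12 (0.344%) lower. The genes with the smallest p were the scaffold gene Ahnak (1.90 ± 0.24, adjusted p = 0.000161), Myof (2.28 ± 0.32, adjusted p = 0.000549), the keratin gene Krt8 (1.06 ± 0.18), Cdh13 (1.75 ± 0.30) and Clu (1.58 ± 0.28, the last 3 with adjusted p = 0.00532). Myof was at 129.7, 212, 359.8 and 201 CPM in positive nuclei of these samples and at 0, 84.5, 64.8 and 40.8 CPM in matched ones. Anxa3 (1.39 ± 0.27) and F3 (1.40 ± 0.30) were also called, so that 2 of 6 fetal and 2 of 6 YAP target genes passed.

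Lower in positive cluster 7 nuclei were Dpyd (-0.97 ± 0.18), Rn7sk (-2.62 ± 0.49), the vitamin D receptor gene Vdr (-1.31 ± 0.27), Pnliprp2 (-4.12 ± 0.86) and Dach1 (-0.87 ± 0.19), those with the smallest p. The stem cell genes Lgr5 (-0.87 ± 0.20, adjusted p = 0.0360) and Smoc2 (-0.84 ± 0.19, adjusted p = 0.0290) were lower as well. Lgr5 was at 241, 178, 414 and 473 CPM in positive and 704, 289.6, 907 and 589.9 CPM in matched nuclei of the 4 samples, lower in 4 of 4. Of the genes most like Ano1, Sorbs2, Fmnl2, Epha4 and Palld were called higher, and Pgap1 (adjusted p = 0.0554), Wwc1 and Mboat1 were not. Without SCM replicate 3, which holds 89 of the pairs, 2 genes were called, and without QCM replicate 3 there were 11.

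Whether genes that accompany Ano1 also differed between the media was tested over whole samples. By edgeR none of 19046 genes passed (0%). An unadjusted p under 0.05 was found for 866, no more than such a threshold passes when nothing differs. DESeq2 called 21, with Ano1, which this contrast had chosen, among them. In simulated counts of this design 45% of 4-fold and 3% of 2-fold changes were recovered, so that moderate differences were beyond its reach. The listed fetal genes had a median log2 fold change (SCM over QCM) of 1.41, with 8 of 9 estimates above 0, and the YAP targets of 0.87, with 16 of 17 above 0, against -0.01 over all genes. Without SCM replicate 2 these medians were 0.75 and 0.28, and without QCM replicate 1 that of the YAP targets was 0.55. Anxa3 (1.46 ± 0.33), Ly6a (1.41 ± 0.32) and Anxa1 (2.01 ± 0.53), and Myof (2.08 ± 0.48), Ptpn14 (2.05 ± 0.49) and Ccn2 (3.62 ± 1.03), had the smallest p of these lists, each with an adjusted p of 0.927. DESeq2 called Myof (adjusted p = 0.0126) and Ptpn14 (adjusted p = 0.0303).

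Mboat1 had an estimate of 0.96 ± 0.24, Sorbs2 of 0.85 ± 0.23 and Gm44930 of 1.92 ± 0.66 over whole samples, none called by edgeR. Mboat1 and Sorbs2 were picked for following Ano1 over sums of these samples, and Ano1 for its higher level in SCM. Gm44930 lies inside Ano1, and whether the 2 genes shared reads was not checked. These 3 estimates are therefore not taken as separate evidence of a difference between the media. The secretory lists had medians between -0.33 (the apical list, Clca genes included and Ano1 not) and -0.05 (basolateral genes), and aquaporins of -0.70, with the water channel gene Aqp1 at -1.06 ± 0.29. Enterocyte genes had a median of -1.98, which was -0.40 with 3 of 8 estimates above 0 without QCM replicate 1, and enteroendocrine genes of -0.81, which was -1.24 without SCM replicate 3. With a single sample left out the median of the apical list lay between -0.53 (SCM replicate 2 left out) and -0.02 (SCM replicate 3 left out), and was -0.04 when QCM replicate 1 was the one. That of the basolateral list lay between -0.07 and 0.08 and so had no fixed sign. The 7 other anoctamins tested had estimates between -0.28 and 1.36 (Ano3, adjusted p = 0.927). Within clusters edgeR passed 0 of 130109 gene and cluster pairs (0%), the listed genes included. An unadjusted p under 0.05 was found for 7490 pairs, not far above what such a threshold passes when nothing differs. Without QCM replicate 2 there were 32 calls.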

How the data were processed

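Nuclei of 6 organoid samples were sequenced with a droplet 3′ method. Per the labels and methods, the authors aligned reads with Cell Ranger (2.1.1 in the submitters' processing notes) to mm10, removed nuclei with outlying quality measures, and clustered the rest after Harmony integration. The deposited values are raw UMI counts per gene and nucleus, with cluster numbers 0 to 14 in a table of nuclei. Symbols came from GENCODE M21 for 31258 of 31319 genes. Doublets were not called here.

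Counts were summed per sample, cluster or matched set and tested in edgeR (4.0.16) with TMM, filterByExpr (minimum count 10), the quasi-likelihood test and Benjamini-Hochberg adjustment over all genes (threshold 0.05). The SE is the log2 fold change divided by the square root of F. Matched sets used up to 3 negative nuclei per positive one and the sample as a block. In simulated counts with 200 genes changed, the matched design recovered 96% of 4-fold and 80% of 2-fold changes (18 false calls, 15540 genes). The depth-limited design in cluster 7 recovered 94% and 65%, also with 200 genes changed (15 false calls, 3489 genes). Alternatives covered DESeq2 (1.42.0), scaling, filters, matching and samples left out. The contrasts in and outside cluster 7, the depth limit and the shared-barcode sets were chosen after seeing the data. Ano1 and the 22 gene lists were chosen with earlier results of these data known. Clusters were named from at least 3 markers 2-fold above the other clusters and at 5 CPM or more. Named genes were Ano1, the anoctamins, up to 3 genes per list, the 5 rising and falling genes of smallest p, the 5 most like Ano1 and its neighbours; other listed genes that were called are named for their lists. Intervals cover counting error only.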

Additional observations from a re-analysis of the deposited data

Results flagged for a closer look

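The difference of Zg16, a goblet cell gene, between Ano1-positive and matched nuclei was not the same in the 2 media by a test of the difference itself (edgeR, interaction of positivity with medium). It was larger in SCM by 2.57 ± 0.40 on the log2 scale (adjusted p = 0.00754), and by 2.07 ± 0.43 with depth held within 1.25-fold (adjusted p = 0.00843). Zg16 was at 9.11, 4.60 and 1.52 CPM in positive and 9.17, 8.14 and 4.76 CPM in matched nuclei of the QCM samples, and at 4.50, 41.2 and 13.3 CPM against 1.10, 7.30 and 4.04 CPM in the SCM samples. With depth limited, positive nuclei held 0, 133 and 15 Zg16 UMIs in SCM replicates 1, 2 and 3. In all 3 genes of 15540 had such a difference, and 4 of 14046 with depth limited. Outside cluster 7 there were 30 of 14885, 21 larger and 9 smaller in SCM. The 3 listed genes among them were Zg16 (2.02 ± 0.44, adjusted p = 0.0196) and the enterocyte gene Apoa1 (0.81 ± 0.17, adjusted p = 0.0156), both larger in SCM, and the stem cell gene Lgr5, smaller in SCM (-0.36 ± 0.09, adjusted p = 0.0494). With depth limited, Apoa1 (0.89 ± 0.15, adjusted p = 6.11e-05) was the other listed gene called beside Zg16.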

How the results depend on the processing

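The Ano1 log2 ratio of SCM to QCM was above 0 under each alternative run. It was 1.47 with clusters weighted equally, the 1 setting that moved it by more than the replicate SD of 0.83, 2.32 with TMM and 2.04 without cluster 7. It was 1.76 to 2.71 with 1 sample left out. The log2 ratio of positive shares, 1.42, was 1.79 after thinning and 1.17 to 1.65 with 1 sample left out. Same-numbered samples deviated together in pairs 1 and 2 (r = 0.36 and 0.46) but not in pair 3 (-0.09), so the numbers were not taken as pairs, although same-numbered libraries used the same number of barcode starts. The mean of the Ano1 log2 ratios of same-numbered samples was 2.39. This mean is the same for any pairing of the samples, so it cannot show whether pairing matters. With a replicate block calls over whole samples stayed at 0. Within clusters the replicate block gave 264 calls of 140452 pairs, 12 of them among the 1433 pairs of listed genes. Clusters 9, 11 and 12 held 205, 49 and 5 of these calls. They had 5 samples each, which with the block left little to estimate the spread from. Cluster 7 held the other 5. Ano1 was among the calls in cluster 9, but this contrast had chosen it, so that call is no evidence. Library size alone gave 5 calls (1 listed), and leaving out 1 sample 0 to 32 (0 to 2 listed), the 32 without QCM replicate 2. DESeq2 gave 21 calls over whole samples, 2 of them listed genes other than Ano1, and leaving out 1 sample gave 0 (and 0 listed). For positive against matched nuclei the 1024 calls became 1593 with matching on cluster alone, 1691 at 2 UMIs or more, 483 with DESeq2, 82 with the depth limit, 29 with no replicate block (no sample block) and 547 to 1204 with 1 sample left out. The called fetal genes, 7, became 3 with the depth limit, 2 without the block and 7 to 8 with 1 sample left out, and the YAP targets, 11, became 3, 0 and 5 to 10, and 7 with DESeq2. Outside cluster 7 the 39 calls became 0 without the block and 13 to 83 with 1 sample left out. In cluster 7 the 38 calls became 0 without the block and 2 to 33 with 1 sample left out. They became 1422 with no depth limit, where depth was unmatched. That setting also allowed up to 3 matched nuclei and let QCM replicate 1 enter, so its count does not reflect the depth limit alone. Of the single genes followed over these settings, Pnliprp2 in cluster 7 turned to 1.83 with no depth limit, and no other changed direction. The neighbour gene Ppfia1, just above 0 over all clusters, was at -0.07 with the depth limit and was called in neither fit. The causes were not tested. Depth limits the low counts: 3 UMIs in SCM replicate 1 amount to 12.9 CPM in cluster 3 and 29.3 CPM in cluster 5.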
